A study of Mus musculus with 70 samples.

Results

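Zinc finger protein genes were followed in the brains of the high (HAB) and low (LAB) anxiety mouse lines. All spots of the MPIP24k cDNA array whose gene name begins with "zinc finger" were taken, the single spot named for Zfp672 was left out, and the spot with the highest mean intensity was kept for each name. This gave 98 genes from 136 spots, out of 22824 probes on the array. Of the 98 names, 95 matched 1 mouse gene symbol in the RefSeq table of assembly GRCm38.p6, 66 as a current and 29 as an earlier symbol. The names zinc finger protein 67, zinc finger protein BC027407 and zinc finger proliferation 1 matched no single symbol and are used as written. In all, 29 names had more than 1 spot.

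The HAB and LAB lines are both derived from CD-1 (ICR) mice and were compared under basal conditions, in males aged 10 weeks. For each of 7 brain regions, micropunched tissue of 6 HAB mice was pooled and set against a pool of 6 LAB mice on 10 two-colour arrays, 5 with the HAB pool in the green dye Cy3 and 5 with it in the red dye Cy5. The regions were the hypothalamic paraventricular nucleus (PVN), the basolateral (BLA), central (CeA) and medial (MeA) amygdala, the nucleus accumbens (NAc), the cingulate cortex (Cg) and the supraoptic nucleus (SON). The 10 arrays of a region were technical replicates of 1 HAB and 1 LAB pool, and all regions came from the same mice, so no value below carries the spread between individual animals. In pooled punches, fewer cells of a type and less RNA per cell cannot be told apart.

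A zinc finger is a short fold of a protein held together by a zinc ion. Most zinc finger proteins bind DNA with rows of such fingers and act as transcription factors, many of them repressors that recruit chromatin-modifying partners through a KRAB or BTB domain. Others bind RNA, serve as cofactors of transcription factors or carry the fold inside an enzyme, and the shared name therefore joins proteins of unlike function. In the brain, members such as Zeb2, Zbtb18, Fezf2 and Zic1 are known for their part in the formation of neurons and of cortical and cerebellar structure.

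The median intensity of an array lay between 135.2 and 2480.5 scanner units, and that of its empty spots reached 939.9 at most. A probe was counted as above the empty spots where its intensity exceeded their median by more than 2 median absolute deviations on at least 35 of the 70 arrays in either line. This held for 79 of the 98 zinc finger genes (80.6%) and for 67.9% of all probes. Region markers were partly in place. Of the striatal markers, Tac1 had its highest signal in the NAc, but Adora2a had it in the PVN, Penk in the BLA, Ppp1r1b in the MeA and Pde10a in the SON, the last 2 on probes not above the empty spots. Avp had its highest signal in the PVN and SON, although the Avp probe was not above the empty spots in the sense above. Oxt differed little between regions, and Prkcd, a marker of the CeA, had its lowest signal there.

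Over the 7 regions, no zinc finger gene differed between HAB and LAB mice beyond the spread of the regions. With limma and Benjamini-Hochberg adjustment over all probes, 0 of 98 genes passed an adjusted p of 0.05, and 0.302% of all probes did. Without adjustment, 5 of 98 genes had p under 0.05, where 6.33% of all probes did. Zscan12 and Zfp57 were on the higher side and Zfp9, Zfp40 and Zfp148 on the lower side. The Zfp57 probe was not above the empty spots. In all, 51 genes had a mean above 0 and 47 a mean below 0, with a median log2 HAB/LAB of 0.01, against 0.00 for all probes (-0.0006). The middle 50% of the zinc finger genes lay between -0.07 and 0.08, and that of all probes between -0.06 and 0.06.

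**Figure D1:**
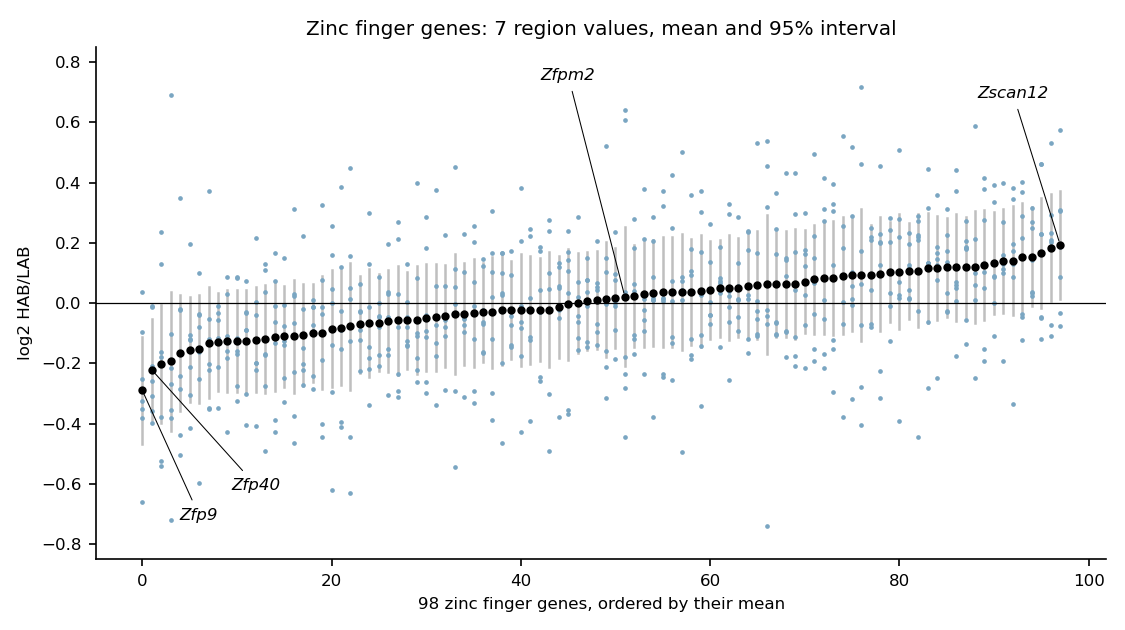
Mean log2 HAB/LAB of the 98 zinc finger genes (black points) with the 95% interval of the limma fit (grey bars) and the 7 region values of each gene (blue points). The means run between -0.29 for Zfp9 and 0.19 for Zscan12, while single regions of genes with a mean near 0, such as Zfpm2, lie far from 0.

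The precision of these means sets how far a change can be bounded. The median standard error was 0.086 on the log2 scale. For 94 of 98 genes (95.9%), the whole 95% interval lay within 1.3-fold of no difference, against 94.3% of all probes. The exceptions were Zfp9, Zfp40, Zfp148 and Pcgf2, a Polycomb component listed on the array under an earlier zinc finger name. The Pcgf2 probe was the dimmest of the 98, with a mean signal of -1.57 (log2 intensity minus the array median). It was not above the empty spots, which it exceeded on 6 arrays in HAB and 3 in LAB mice.

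Zfp9 had the lowest mean. Its log2 HAB/LAB was -0.38 in the PVN, -0.09 in the BLA, -0.33 in the CeA, 0.04 in the NAc, -0.25 in the MeA, -0.35 in the Cg and -0.66 in the SON. The value was below 0 in 6 of 7 regions, and the mean was -0.29 with a standard error of 0.087 and a 95% interval of -0.47 to -0.11 (limma, adjusted p = 0.3225). Single arrays of Zfp9 overlapped 0 in every region. In the SON they ran between -1.80 and 0.22 with 8 of 10 below 0.

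Zfp40 was below 0 in all 7 regions, between -0.40 in the CeA and -0.01 in the MeA, with a mean of -0.22 (standard error 0.081, adjusted p = 0.5912). Zfp346, known as a binder of double-stranded RNA, was likewise below 0 in all 7 regions with a mean of -0.13. Zfpl1, a Golgi protein, and Zfp143, an activator that binds promoters, were above 0 in all 7 regions with means of 0.11 and 0.15. These signs held for the average of the dye orientations. With HAB in Cy3 alone, Zfp143 was below 0 in 5 of 7 regions, Zfpl1 in 4, Zfp346 in 3 and Zfp40 in 6. The 4 of 98 genes of 1 sign in the average (4.08%) compare with 2.14% of all probes that kept 1 sign over the 7 regions.

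Among the other genes above the empty spots, the means furthest from 0 lay between -0.20 and 0.19. On the higher side stood Zscan12, which carries a SCAN domain, with 0.19 (adjusted p = 0.757), zinc finger proliferation 1 with 0.17, Zfp358 and Zfp385a with 0.14 each, Zfp46 and Patz1 with 0.13 each and Zfp142 with 0.12. Zscan12 was highest in the NAc at 0.57, where its arrays ran between -0.45 and 1.46. On the lower side stood Zfp148, a factor that binds GC-rich promoters, with -0.20, Zfp386 with -0.17 and Zeb2 with -0.15. Arfgap2, which promotes GTP hydrolysis by Arf proteins, and the RNA-binding Zfr stood at -0.13 each. The adjusted p-values of these genes on both sides lay above 0.7 throughout.

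Within single regions, 2 genes met a rule of at least 1.3-fold in the mean with all 10 arrays in 1 direction. Zfpm2 was higher in the NAc and in the Cg of HAB mice, and Zbtb18 was lower in the CeA. No zinc finger gene met the rule in the PVN, BLA, MeA or SON. Over all probes the rule was met by 0.736% in the PVN, 0.223% in the BLA, 1.01% in the CeA, 1.99% in the NAc, 0.587% in the MeA, 1.59% in the Cg and 0.556% in the SON. With 1 gene of 98 in each of 3 regions, the zinc finger genes stood near these shares.

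A limma fit over the 10 arrays of each region passed 0 of 98 genes at an adjusted p of 0.05 in all 7 regions. The shares of all probes were 0.386% in the PVN, 0.101% in the BLA, 0.0701% in the CeA, 1.27% in the NAc, 0.114% in the MeA, 0.53% in the Cg and 0.0789% in the SON. At an unadjusted p under 0.05 there were 10 genes in the PVN, 2 in the BLA, 9 in the CeA, 12 in the NAc, 5 in the MeA, 9 in the Cg and 5 in the SON. The corresponding shares of all probes lay between 6.87% in the BLA and 12.1% in the NAc. The smallest adjusted p-values were 0.06475 for Zfp148 in the NAc, 0.07434 for Zfpm2 in the Cg and 0.07546 for Zfpm2 in the NAc.

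Whether the HAB/LAB ratio was unequal between regions was tested with a limma F-test over the 70 arrays. It passed 4 of 98 genes (4.08%), Zfpm2, Zbtb18, Zeb1 and Zranb2, and 6.1% of all probes. The first 3 are regulators of transcription and the last binds RNA. The test sets differences between pools against the spread of technical replicates.

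Zfpm2, also called Fog2, is a cofactor that binds GATA transcription factors. In the Cg its log2 HAB/LAB was 0.42, 0.50, 0.51, 0.51 and 1.16 on arrays that carried HAB in Cy3 and 0.27, 0.72, 0.77, 0.77 and 0.79 where HAB was in Cy5. In the NAc it was 0.07, 0.13, 0.45, 0.72 and 0.98 where HAB was in Cy3 and 0.37, 0.42, 0.57, 0.98 and 1.37 where it was in Cy5. All 20 of these arrays lay above 0, in both dye orientations. The means were 0.64 ± 0.25 in the Cg and 0.61 ± 0.41 in the NAc (SD, 10 arrays each), that is 1.56-fold and 1.52-fold.

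In the other regions Zfpm2 stood at 0.04 in the PVN, -0.28 in the BLA, -0.18 in the CeA, -0.24 in the MeA and -0.44 in the SON. The F-test gave an adjusted p of 5.73e-06, and with each region left out in turn its adjusted p ranged between 8.93e-06 and 0.00221. The CeA value was a mean of opposite dye orientations, 0.14 to 0.36 on arrays that carried HAB in Cy3 and -0.91 to -0.15 where HAB was in Cy5. In the SON, 4 of 10 arrays lay above 0, so that arrays of both signs were present there.

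The signal of Zfpm2, as log2 intensity minus the array median before dye normalization, was 2.35 ± 0.46 in HAB and 1.54 ± 0.54 in LAB mice in the Cg (SD, 10 arrays). In the NAc it was 0.30 ± 0.58 in HAB and -0.32 ± 0.64 in LAB mice, near the empty spots, which were exceeded on 9 of 10 arrays in HAB and 6 of 10 in LAB. Of the arrays of the Cg, 6 shared a scan day with both dye orientations and gave 0.59, and the other 4, all with HAB in Cy3, lay between 0.42 and 1.16.

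**Figure D2:**
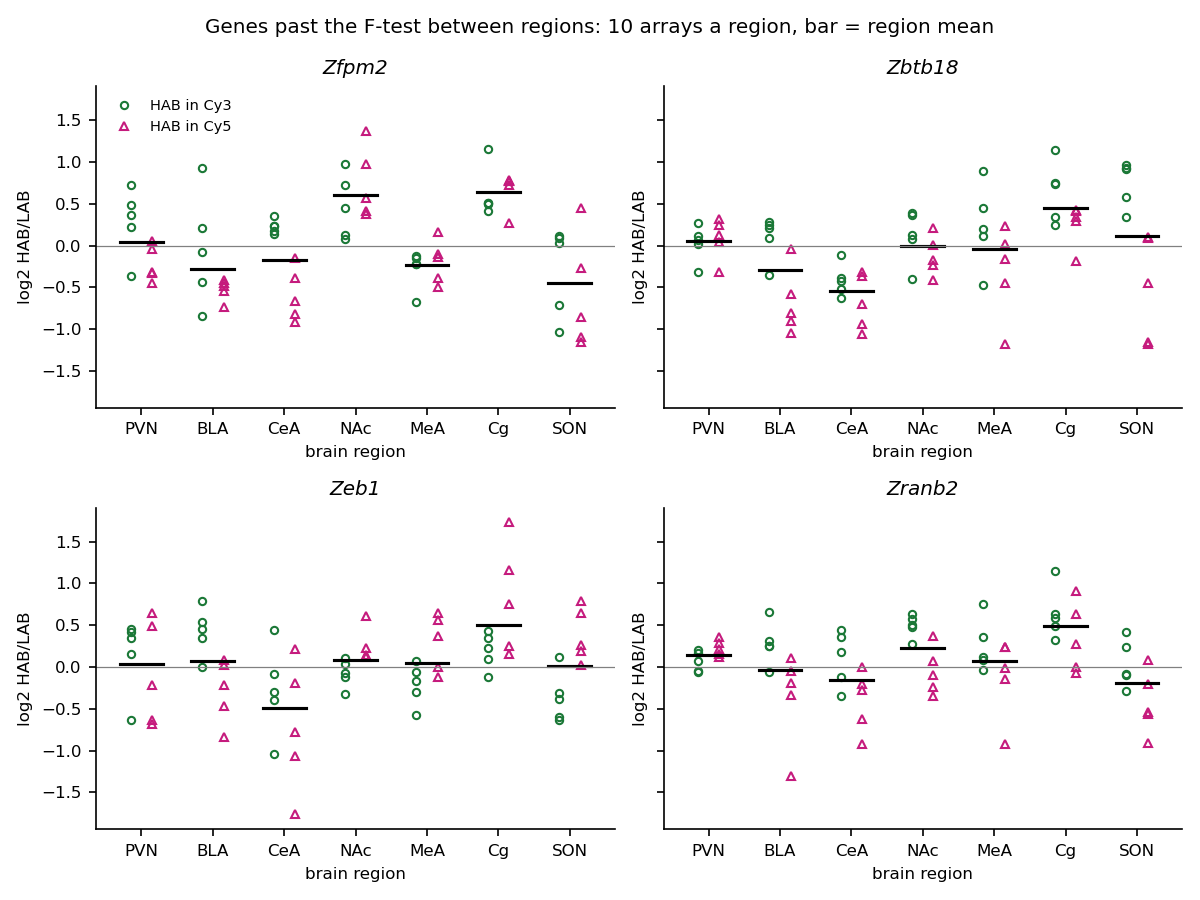
Log2 HAB/LAB of Zfpm2, Zbtb18, Zeb1 and Zranb2 on every array, by brain region, with circles for arrays with HAB in Cy3, triangles for arrays with HAB in Cy5 and a bar at the region mean. All 20 Zfpm2 arrays of the NAc and Cg lie above 0 and all 10 Zbtb18 arrays of the CeA lie below 0.

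Zbtb18, also called RP58, is a BTB-domain repressor required for the development of cortical neurons. In the CeA its log2 HAB/LAB was -0.63, -0.52, -0.43, -0.38 and -0.11 on arrays that carried HAB in Cy3 and -1.06, -0.94, -0.70, -0.37 and -0.31 where HAB was in Cy5. The mean was -0.55 ± 0.29 (SD, 10 arrays), or 0.685-fold. In the Cg it was 0.45 ± 0.36, with 9 of 10 arrays above 0. The CeA and Cg arrays overlapped only through the array of the Cg at -0.18.

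The remaining Zbtb18 means were 0.05 in the PVN, -0.29 in the BLA, 0.00 in the NAc, -0.04 in the MeA and 0.11 in the SON. The F-test gave an adjusted p of 0.00212. It gave 0.155 without the CeA and 0.0984 without the Cg, so the test of unequal ratios rested on both of these regions. In the SON the orientations split, with 0.34 to 0.96 where HAB was in Cy3 and -1.18 to 0.11 where it was in Cy5. The 8 arrays of the CeA from the scan day that held both orientations gave -0.56.

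Zeb1, a repressor with zinc fingers and a homeodomain, was lower in the CeA at -0.49 ± 0.67 and higher in the Cg at 0.50 ± 0.56 (SD, 10 arrays), with 2 and 9 of 10 arrays above 0. In the other 5 regions its means lay between 0.01 and 0.09. The F-test gave an adjusted p of 0.0363, with 0.463 without the CeA, 0.306 without the Cg and 0.058 without the NAc.

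Zranb2, a splicing factor that binds RNA through its fingers, was higher in the Cg at 0.49 ± 0.38 with 8 of 10 arrays above 0. It stood at 0.22 in the NAc, 0.15 in the PVN, 0.07 in the MeA, -0.04 in the BLA, -0.15 in the CeA and -0.19 in the SON. The F-test gave an adjusted p of 0.0437, which lay above 0.05 without the PVN (0.0738), CeA (0.105), NAc (0.0832), Cg (0.468) or SON (0.1). The next gene in order was Rnf103, a ubiquitin ligase of the endoplasmic reticulum, with an adjusted p of 0.0637.

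Oligodendrocyte markers also differed between the pools in these regions. In the Cg the log2 HAB/LAB was 0.64 for Mbp, -0.07 for Mog and -0.89 for Mobp. In the NAc it was 0.46 for Mbp, 0.06 for Mog and -1.21 for Mobp. In the CeA it was -0.40 for Mbp, -0.11 for Mog and 0.72 for Mobp. These markers thus did not share 1 direction in any of these regions. Among endothelial markers, Cldn5 stood at 0.89 and Flt1 at 0.06 in the NAc. The part of these cell types in the zinc finger values was not tested.

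Both probes of Zfpm2 lay above the empty spots, but they did not show the same pattern. The second probe had -0.34 in the NAc and -0.14 in the Cg, against 0.61 and 0.64 for the brighter probe, and 0.42 in the SON, against -0.44. The signs matched in 3 of 7 regions, and the second probe had an adjusted p of 0.251 in the F-test. For Zbtb18 the second probe had 0.14 in the CeA, 0.14 in the Cg and -0.74 in the SON. Averaged over the probes of a name, Zfpm2 stood at 0.13 in the NAc and 0.25 in the Cg and Zbtb18 at -0.20 in the CeA, and no zinc finger gene met the rule of 1.3-fold with all 10 arrays. What each probe's cDNA covers of its gene was not examined here.

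The probes of Zeb1 were alike in the CeA, at -0.49 and -0.38, but not in the Cg, at 0.50 for the brighter and -0.17 for the second probe. Fezf2, a transcription factor of deep-layer cortical projection neurons, was chosen after its values were seen, since both of its probes gave like ratios in several regions. They stood at 0.51 and 0.49 in the Cg, at -0.39 and -0.46 in the CeA and at 0.28 and 0.40 in the SON, with the same sign in 5 of 7 regions. They parted in the PVN at 0.03 and 0.50, in the NAc at 0.07 and -0.19 and in the MeA at 0.22 and -0.20. Neither passed the F-test (adjusted p = 0.4445 for the brighter probe and 0.2107 for the second). In the CeA the brighter probe exceeded the empty spots on 0 of 10 arrays in HAB and 1 of 10 in LAB mice. Its region means ran from -0.017 to 0.564 with HAB in Cy3 and from -1.188 to 0.454 with HAB in Cy5. The CeA mean of -0.39 on this probe thus came from the arrays with HAB in Cy5.

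**Figure D3:**
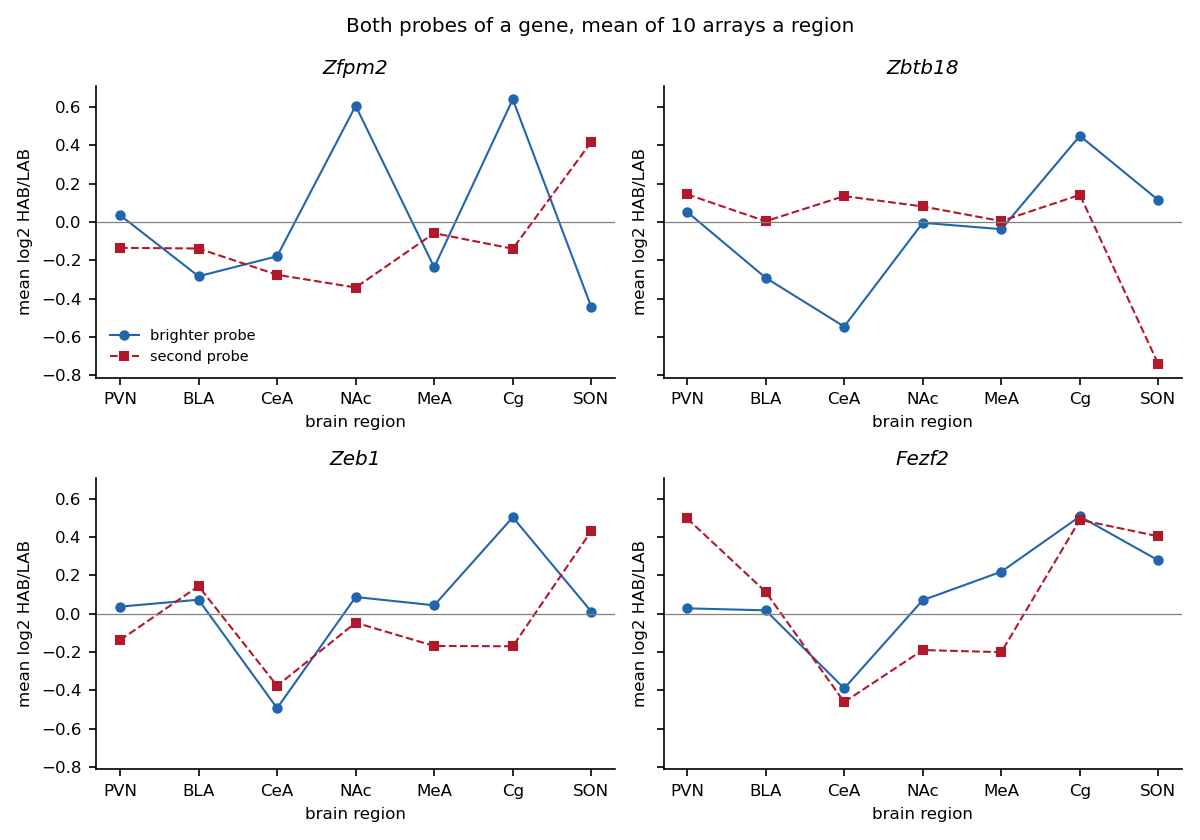
Mean log2 HAB/LAB by brain region for the brighter (blue circles) and second (red squares) probe of Zfpm2, Zbtb18, Zeb1 and Fezf2, each the mean of 10 arrays. The probes of Zfpm2 part in the NAc, Cg and SON, while those of Fezf2 both lie near 0.5 in the Cg and near -0.4 in the CeA. The CeA mean of the brighter Fezf2 probe came from the arrays with HAB in Cy5.

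Over all names with at least 2 probes above the empty spots, the region values of the 2 brightest probes had a median Pearson's r of 0.07 for 18 zinc finger names and of 0.15 for 1209 other names. An r above 0.5 was found for 1 of 18 zinc finger names (5.56%) and for 25.7% of the others. Each r rests on 7 regions of the same mice and describes the probes only. For the signal by region in place of the ratio, the median r was 0.36 for zinc finger names and 0.29 for others.

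Dye orientation moved several zinc finger genes more than the line did. Zfp142 had a mean log2 HAB/LAB of 1.00 on the arrays with HAB in Cy3 (limma, adjusted p = 0.000234) and of -0.76 on those with HAB in Cy5 (adjusted p = 0.0224). It was above 0 in 7 of 7 regions in the first set and below 0 in 6 of 7 in the second. In the Cg its means were 1.70 where HAB was in Cy3 and -1.59 where it was in Cy5. Taken alone, each orientation would have given this bright probe as different between the lines, in opposite directions.

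Zfp148 had 0.46 with HAB in Cy3 (adjusted p = 0.0881) and -0.86 with HAB in Cy5 (adjusted p = 0.0195). In the same order, Zfp106, known as an RNA-binding protein, had 0.52 and -0.58, and zinc finger protein 67 had 0.46 and -0.56. Zfp219, whose probe was not above the empty spots, went the other way, at -0.58 with HAB in Cy3 (adjusted p = 0.0335) and 0.52 with HAB in Cy5 (adjusted p = 0.0633). In all, 62 of 98 genes (63.3%) had opposite signs in the orientations, as did 15301 of 22824 probes, and the median size of the difference was 0.211 for zinc finger genes and 0.227 for all probes. With both orientations averaged, Zfp142 stood at 0.12 and Zfp148 at -0.20.

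**Figure D4:**
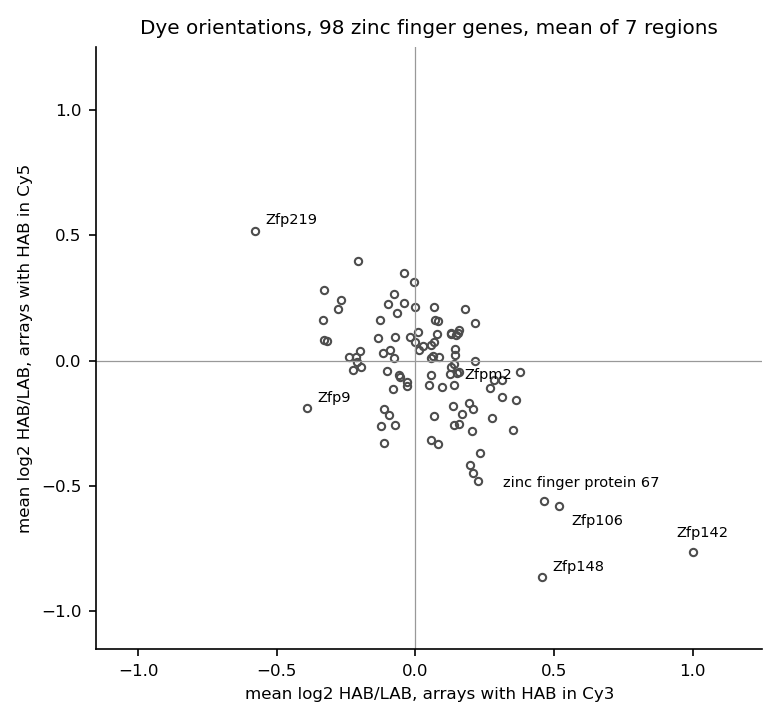
Mean log2 HAB/LAB over the 7 regions on arrays with HAB in Cy3 (horizontal axis) and on arrays with HAB in Cy5 (vertical axis), 1 point for each of the 98 zinc finger genes. Zfp142, Zfp148, Zfp106 and zinc finger protein 67 lie far out at lower right and Zfp219 at upper left, where the orientations have opposite signs.

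By the wording of their names, 77 genes were numbered zinc finger proteins, of which 40 had a mean above 0 and 37 below 0, with a median of 0.01. None of these groups held a gene past the test over the 7 regions. Zic1 and Zic4, zinc finger proteins of the cerebellum and transcription factors of midline and cerebellar development, stood at -0.11 and -0.03. Zic1 and its genomic neighbour Zic4 were both lowest among their amygdala values in the MeA, at -0.39 and -0.33. Of the genes named for a homeobox, Zeb2 stood at -0.15, Zhx1 at 0.02 and Zeb1 at 0.04.

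Zfp36l1, which binds AU-rich elements and promotes the decay of mRNAs, was the only gene named for CCCH-type fingers, with a mean of 0.11. Its probes gave 0.23 and 0.43 in the NAc and 0.29 and 0.38 in the Cg. They parted in the CeA at -0.45 and 0.06 and in the MeA at 0.27 and -0.10. Zdhhc3, a palmitoyltransferase with a DHHC domain, stood at -0.01. A further 3 pairs of neighbouring genes were measured. Zkscan14 and Zkscan5 stood at 0.38 and 0.52 in the Cg, where the second Zkscan5 probe, not above the empty spots, had -0.09. In the CeA, Zfp35, whose probe was not above the empty spots, stood at 0.56. Zfp24 stood there at 0.00 (-0.0011) on its brighter probe and at 0.20 on its second probe, which was above the empty spots. In the BLA, Zfp93 and Zfp61 stood at -0.14 and 0.38.

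Signal levels were described for each probe across regions, as the mean of HAB and LAB log2 intensity minus the array median. Each region had its own set of arrays, so region and array set cannot be told apart. The highest means over the 70 arrays belonged to zinc finger protein 67 (4.50), Zfp106 (4.17), Zranb2 (3.16), Zfp142 (2.84), Zfp148 (2.80), the splicing factor Sf1 (2.38), Zfr (2.28), Zbtb18 (2.26), Zfp36l1 (2.13) and Zeb1 (1.95). These are brightnesses of different probes and give no order of expression between genes. Of the 98 genes, 27 had their highest signal in the PVN, 17 in the BLA, 15 in the Cg, 14 in the SON, 12 in the NAc, 8 in the CeA and 5 in the MeA. The same count was not made over all probes, so no trait of zinc finger genes is read from it.

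Zbtb18 was brightest in the Cg, at 4.57 ± 0.77 in HAB and 4.03 ± 0.93 in LAB mice, and stood next at 2.42 ± 0.81 in HAB and 2.70 ± 1.06 in LAB mice in the BLA (SD, 10 arrays). The other 5 regions lay between 1.30 in the CeA and 2.34 in the NAc in HAB mice, and between 1.21 in the SON and 2.16 in the PVN in LAB mice. The second Zbtb18 probe was brightest in the MeA. Fezf2 was brightest in the Cg with both probes, at 1.53 ± 0.68 and 1.13 ± 0.53 over both lines. On the brighter probe this was 1.84 ± 0.94 in HAB and 1.21 ± 0.48 in LAB mice.

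Both Zfp36l1 probes were brightest in the PVN, at 3.17 and 2.78, where the first was close to its MeA value of 3.12. Zic4 was brightest in the PVN, at 1.62 ± 0.54 in HAB and 1.58 ± 0.44 in LAB mice. Zic1 had its highest value of 0.27 ± 0.48 in the NAc, within the SD of the MeA, Cg and SON.

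The widest range belonged to Zbtb20, a BTB-domain repressor known from hippocampal development, between -1.29 in the CeA and 2.33 in the NAc. Zbtb20, Zfp386 and Zfp1 were each lower in the PVN, BLA and CeA than in the NAc, MeA, Cg and SON, with no overlap of the region means. The gaps between these sets of regions were 1.12 for Zbtb20, 1.24 for Zfp386 and 2.02 for Zfp1. Such a split was found in 13 of 98 zinc finger genes (13.3%) and 10.3% of all probes, and its reverse in 6 genes (6.12%) and 6.54% of all probes. It divides the first 3 from the other 4 sets of arrays in the order of the series, so region and array set cannot be told apart. The second Zbtb20 probe did not show it, with -0.37 in the BLA and -0.49 in the Cg. Zfp275 ranged between 2.03 in the PVN and -1.36 in the SON, and Sf1 was brightest in the PVN at 3.91.

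**Figure D5:**
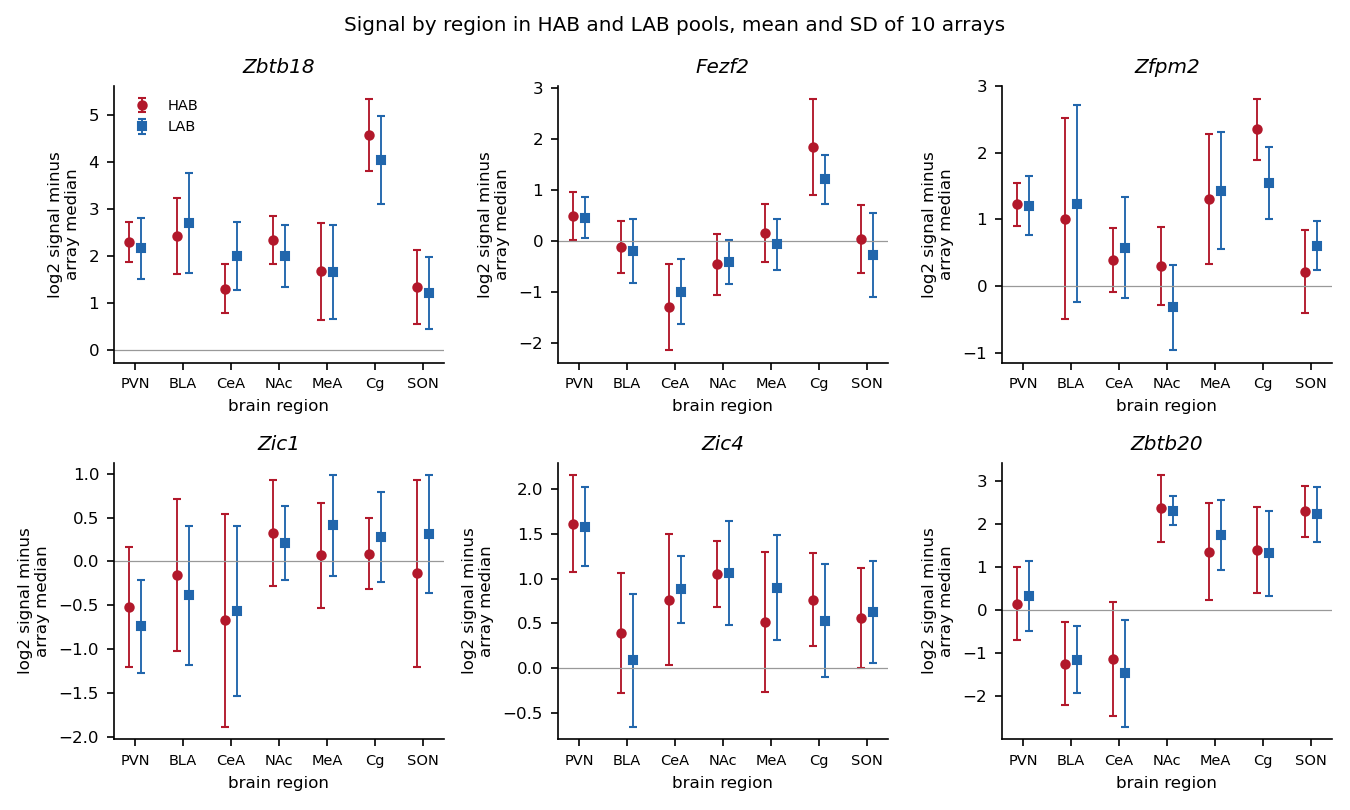
Log2 signal minus the array median by brain region for Zbtb18, Fezf2, Zfpm2, Zic1, Zic4 and Zbtb20, HAB pool (red circles) left of LAB pool (blue squares), mean and SD of 10 arrays. Zbtb18 and Fezf2 are brightest in the Cg in both lines, and Zbtb20 is below 0 in the BLA and CeA and above 1 in the NAc, MeA, Cg and SON.

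Among 39 other zinc finger transcription factors whose names do not begin with "zinc finger", such as the Klf, Sp and Egr genes, 0 passed the limma test over the 7 regions, with 24 means above 0, 15 below 0 and a median of 0.03. Without adjustment, 2 of 39 had p under 0.05, where 6.33% of all probes did. Egr1, an immediate early gene, had a mean of 0.50 (adjusted p = 0.063), and Myt1, a factor of oligodendrocyte and neuronal development, had -0.22 (adjusted p = 0.7513). The F-test between regions passed 3 of 39, where it passed 6.1% of all probes. They were Egr1 (adjusted p = 2.79e-08), Klf9 (0.0149) and Maz (0.0361).

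KRAB zinc finger proteins act through corepressors that write and read repressive chromatin. Of 16 such genes, 0 passed the test over the 7 regions, with 5 means above 0, 11 below 0 and a median of -0.02. The 2 of 16 with an unadjusted p under 0.05, where 6.33% of all probes had one, were Cbx3, a heterochromatin protein, with -0.24 (adjusted p = 0.5913) and Chd4, a remodelling helicase, with -0.31 (adjusted p = 0.7565). The F-test between regions passed the same 2 of 16, where it passed 6.1% of all probes, with an adjusted p of 0.0465 for Cbx3 and of 2.38e-12 for Chd4. Cbx3 lay between -0.68 in the MeA and 0.10 in the SON. Chd4 stood at 0.63 in the CeA, -0.97 in the NAc and -0.98 in the Cg on its brightest probe.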

How the data were processed

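The authors deposited, for each of the 70 arrays, the unnormalized scanner intensity of every spot and of its local background, and a table of normalized log2 ratios. The table served as an alternative, since it held 8456 to 18770 values per array and only 24 of the 98 genes in all 7 regions. Intensities were background corrected (normexp, offset 50), normalized by loess within each array (span 0.4, the 40% of the methods) and by the median of each of 48 print-tip blocks, leaving out 1368 control and empty spots, and turned to log2 HAB/LAB. The local background was 0 for 79.8% of values. The dye of 3 arrays was read from the image name.

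Tests used limma 3.58.1 in R 4.3.3, fitted on all probes. They were an intercept over 7 region values, an intercept with a dye term over the 10 arrays of a region, and an F-test of equal region means. The scripts were tested on simulated data. The p-values measure the spread between regions of the same mice or between technical replicates, and the number of arrays limits their precision. Named genes were those past a test, the 8 largest means in each direction among genes above the empty spots, genes meeting the rule per region, the 10 brightest genes, and those named for a homeobox or the cerebellum, with their other probes. The 4 genes with 1 sign in all regions, Pcgf2, Zfp57, Zfp219, Fezf2, Zbtb20, Zfp386, Zfp1, Zfp275, Rnf103 and the neighbouring pairs were described after their values were seen. Genes and lists were chosen with earlier results of these data known. Values of a few genes are not reported here.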

Additional observations from a re-analysis of the deposited data

Results flagged for a closer look

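The HAB/LAB ratio was unequal between regions by limma's F-test for Zfpm2 (adjusted p = 5.73e-06), Zbtb18 (adjusted p = 0.00212), Zeb1 (adjusted p = 0.0363) and Zranb2 (adjusted p = 0.0437). Among the 7 region values of a gene, the BLA value of Zfp358 (-0.34) lay apart below the other 6, and the Cg value of Arfgap2 (0.37) lay apart above the other 6. For Zranb2 in the BLA, 1 array with HAB in Cy5 lay apart from the other 9 at -1.31 (-1.305). In all, 49 groups of values were examined in this way, 21 groups of regions and 28 groups of arrays, and chance sets a value apart in about 1 in 20 groups.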

How the results depend on the processing

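For the line difference over the 7 regions, the count of 0 genes held under each other background correction and normalization, on mean probes, among probes above the empty spots and with each region left out, but became 2 with HAB in Cy3 alone and 2 with HAB in Cy5 alone. With 1 orientation alone the direction turned for zinc finger proliferation 1 (-0.0454, HAB in Cy5), Zfp143 (-0.0411, HAB in Cy3), Zfp142 (-0.76, HAB in Cy5), Zfp148 (0.46, HAB in Cy3), Zfp346 (0.0563, HAB in Cy3) and Zfr (0.0812, HAB in Cy3), and Zfp386 stood at 0.0215 in the authors' table. These were 7 of 252 alternative values of 16 named genes, and the other 245 kept their direction. Of these 245, 20 were smaller and 13 larger than the reported mean by over 1.5 times, 5 and 9 of them with 1 orientation alone. On mean probes Zfp148 stood at -0.06, Zfp346 at -0.04, Zfp358 at 0.05 and Patz1 at 0.06, and in the authors' table zinc finger proliferation 1 stood at 0.02 and Zfp9 at -0.19. Without the CeA, Zfp142 stood at 0.04, and without the MeA, Zeb2 at -0.08.

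The 3 gene and region pairs that met the rule of 1.3-fold with all 10 arrays became 5 with loess within print-tip blocks and 0 on mean probes. The limma fit per region passed 0 pairs as reported, 1 with loess within print-tip blocks, 7 with the array median alone, 8 in the authors' table and 4 among probes above the empty spots. The F-test passed 4 genes as reported, 7 with loess within print-tip blocks, and between 1 and 5 with a region left out, an alternative chosen after seeing the data. The cause of these shifts was not tested.

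Replicate numbers shared by the dye orientations did not pair the arrays, since their deviations correlated between -0.051 and 0.042 in 35 pairs. With the number as a replicate block the fit per region passed 0 pairs and the F-test 2 genes, Zfpm2 (adjusted p = 0.000356) and Zbtb18 (0.0449).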
